A study of Mus musculus with 15 samples.

Results

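Brain messenger RNA of mice given the treatment labelled JU was compared with that of mice given the treatment labelled UA, both after blockage of the middle cerebral artery (MCAO), a model of stroke. The comparison took 6 of the 15 libraries of the study, JU replicates 1 to 3 and UA replicates 1 to 3. It covered the 14689 of 18931 genes that had at least 10 counts in 3 or more of these 6 libraries. All animals were Kunming mice, an outbred stock, and the other 9 libraries, 3 each, came from sham, vehicle and JA groups. The titles of the sham samples also carry the word MCAO, while their treatment is given as sham. The study title names jasminoidin, the plant iridoid also called geniposide, combined with ursodeoxycholic acid, a bile acid, for brain ischemia followed by reperfusion. JA, UA and JU are left as abbreviations in the labels. If JU is the combination and UA the bile acid alone, the comparison asks what the added compound changed. Neither the labels nor the protocols state the brain region, hemisphere, dose, time after occlusion, age or sex, or whether replicate libraries are from different mice. The p-values therefore describe the spread between libraries, which could be technical.

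After a stroke, microglia, the resident immune cells of the brain, leave their resting state and take up debris, while astrocytes build a scar rich in intermediate filaments. Neurons in the territory of the artery are lost, among them the projection neurons of the striatum. Ursodeoxycholic acid is known as a hydrophilic bile acid that lessens stress of mitochondria and of the endoplasmic reticulum, and jasminoidin as an anti-inflammatory compound of gardenia fruit.

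Total counts ran from 18346180 to 20447465 per library, so that 3 counts, the floor of detection used here, equal 0.144 to 0.166 CPM, the count after scaling to a common library size with TMM factors. This floor covers counting error only. Brain markers were abundant in all 6 libraries: Snap25, a synaptic protein of neurons, ran from 770.4 to 2878 CPM and Mbp, a myelin protein, from 3097 to 4751. JU replicate 1 stood apart. Its 10 most abundant genes took 7.57% of the counts, against 2.79% to 4.78% in the other 14 libraries. It held 2359 genes at least 2-fold above the mean of JU replicates 2 and 3 and 1303 at least 2-fold below it, whereas replicates 2 and 3 differed 2-fold from each other in 378 genes and pairs of UA libraries in 239 to 368. The median SD of log2 CPM per gene was 0.32 in JU, 0.10 in JU replicates 2 and 3, and 0.12 in UA. Counts, list medians and most fold changes are therefore given with and without JU replicate 1.

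In both edgeR fits most genes that passed were lower in JU. Most other settings that gave any calls kept this direction, though with DESeq2 on all libraries the split was close to even. Leaving out JU replicate 2 reversed it in the first fit, and many settings gave no calls. With all libraries, 190 of 14689 genes (1.29%) passed an adjusted p of 0.05 in edgeR's quasi-likelihood test, 23 higher (0.157%) and 167 lower (1.14%) in JU than in UA. Without JU replicate 1, 115 genes passed (0.783%), 4 higher (0.0272%) and 111 lower (0.756%). Both fits shared 82 genes, which is 43.2% of the first set and 71.3% of the second, 80 of them lower. These calls lie close to the threshold: the smallest adjusted p was 0.0432 with all libraries and 0.0361 without JU replicate 1, while 4035 genes (27.5%) and 2543 genes (17.3%) had an unadjusted p under 0.05. The count fell to 0 in both fits with another scaling, with no filter on low counts, with a correction for GC content and without any 1 UA library, and with DESeq2 it was 1633 (764 higher and 869 lower) and 743 (179 and 564). Without JU replicate 2 most calls of the first fit were higher in JU, 1948 of 3150 against 1202 lower, and 1 gene, higher, passed in the second, and without JU replicate 3 it was 0 in both.

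**Figure D1:**
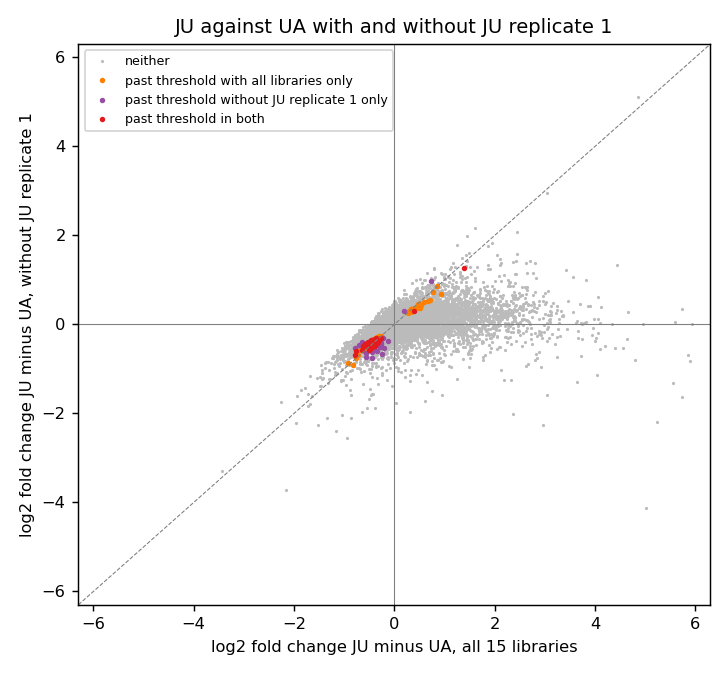
Each point is 1 of 14689 genes, with the log2 fold change of JU minus UA from the fit of all 15 libraries on the horizontal axis and from the fit without JU replicate 1 on the vertical axis. The 82 genes past the threshold in both fits (red) lie near the dashed line of equal values, while many genes with large changes on the horizontal axis lie near 0 on the vertical one.

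Stretches of the coding sequences of 4 genes that passed in both fits are shown as examples of GC-poor and GC-rich genes. Below are the 90 bases at the middle of each coding sequence, 5′ to 3′, with G and C in capitals, from the GENCODE transcripts of mouse build GRCm38. Ube3a and Ipo7 were lower and Evc2 and Prkcsh higher in JU, and Ube3a and Ipo7 were chosen after their values were seen.
Ube3a: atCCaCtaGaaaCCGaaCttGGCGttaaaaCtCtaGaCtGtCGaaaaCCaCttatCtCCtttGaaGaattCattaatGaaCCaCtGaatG
Ipo7: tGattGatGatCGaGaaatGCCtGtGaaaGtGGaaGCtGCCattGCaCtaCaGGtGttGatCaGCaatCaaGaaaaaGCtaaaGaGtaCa
Evc2: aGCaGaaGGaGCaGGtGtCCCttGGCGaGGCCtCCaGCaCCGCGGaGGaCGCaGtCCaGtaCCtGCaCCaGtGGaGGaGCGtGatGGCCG
Prkcsh: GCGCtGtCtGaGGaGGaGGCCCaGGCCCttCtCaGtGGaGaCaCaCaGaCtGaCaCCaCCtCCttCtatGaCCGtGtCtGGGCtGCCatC
G and C make up 37.8% of this stretch in Ube3a, 41.1% in Ipo7, 66.7% in Evc2 and 61.1% in Prkcsh. Over the whole coding sequence the shares are 38.3%, 41%, 57.2% and 57.4%, so the stretch of Evc2 is richer in G and C than the rest of its sequence.

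Ube3a encodes an E3 ubiquitin ligase (Entrez 22215; chromosome 7, 59228750 to 59311536). It stood at 73.7, 82.8 and 76.1 CPM in UA and 55.7, 56.8 and 55.8 CPM in JU. The groups did not overlap, and JU replicate 1 lay with the other JU libraries (log2 fold change -0.47 ± 0.07 SE, n = 3 a group, edgeR adjusted p = 0.0432, and -0.47 ± 0.08 without JU replicate 1, adjusted p = 0.0448). Ipo7, a nuclear import receptor (Entrez 233726; chromosome 7, 110018274 to 110056609), was at 173, 181 and 175 CPM in UA and 119, 129 and 127 CPM in JU (-0.50 ± 0.07, edgeR adjusted p = 0.0432, and -0.47 ± 0.07 without JU replicate 1, adjusted p = 0.0448). Means of Ipo7 were 181 CPM in sham and 118 CPM in vehicle, so UA lay at the sham level and JU at the vehicle level. Its transcript GC content was 40.3%, and GC-poor genes as a whole had the same order of these groups, as described below.

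Further examples of genes lower in both fits were picked from the 80 after their values were seen, and stand for no theme. They included Psma6, a proteasome subunit, at -0.32, Ube2n, a ubiquitin-conjugating enzyme, at -0.50, Vps35, a retromer subunit, at -0.40, and Rab11a, a GTPase of recycling endosomes, at -0.49. Cct8, a subunit of the TRiC chaperonin, stood at 200, 199 and 199 CPM in UA and 140, 155 and 158 CPM in JU (-0.40 ± 0.07, edgeR adjusted p = 0.0432). Tomm22, an import receptor of the mitochondrial outer membrane, had a fold change of -0.46. Without JU replicate 1 the values of these 6 genes ran from -0.50 to -0.35. Changes were modest in size: over the 167 lower genes the median log2 fold change was -0.44, and the largest was -0.93.

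Among the lower genes with the largest changes, Ndufb1, a subunit of respiratory complex I, stood at 46.4, 43.1 and 37.6 CPM in UA and 21.4, 28.1 and 24.4 CPM in JU (-0.78 ± 0.13, edgeR adjusted p = 0.0432). Ndufb1 also passed without JU replicate 1 (-0.70 ± 0.13, edgeR adjusted p = 0.0448), and its position and GC content are not given here because the annotation used held no match. Nectin3, an adhesion molecule of neuronal contacts (chromosome 16, 46387706 to 46498525), was at 46.3, 45.3 and 58.2 CPM in UA and 22.2, 34.8 and 31.2 CPM in JU (-0.76 ± 0.15, edgeR adjusted p = 0.0443, and -0.60 ± 0.12 without JU replicate 1). Mcts1, a translation reinitiation factor on chromosome X, fell by 0.64 and Naa20, the catalytic subunit of an N-terminal acetyltransferase, by 0.50 on the log2 scale. Both passed in both fits. Akr1e1, an aldo-keto reductase, had the lowest fold change (-0.93 ± 0.20, edgeR adjusted p = 0.049). It stood at 24.2, 15.9 and 13.1 CPM in UA and 8.23, 8.84 and 10.8 CPM in JU, and did not pass without JU replicate 1 (adjusted p = 0.0749).

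Antkmt, a methyltransferase acting on the mitochondrial ADP/ATP carrier, differed from the other lower genes in its composition, with a transcript GC content of 57.9%. Its levels were 32.4, 32.1 and 31.9 CPM in UA and 17.8, 21.7 and 16.8 CPM in JU, with no overlap (-0.78 ± 0.16, edgeR adjusted p = 0.0447). With the correction for GC content its fold change was -0.93, and without JU replicate 1 it did not pass (-0.74 ± 0.17, adjusted p = 0.0587). Klf8, Zfp40, Klhl4, Cacybp, Tstd3 and Fam136a completed the named lower genes, with fold changes from -0.76 to -0.66, and none of these 6 passed without JU replicate 1.

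Of the 111 genes lower without JU replicate 1, 101 had no overlap of UA with all 3 JU libraries either. Some others passed in which JU replicate 1 had lain with or above UA. Hmgn5, a nucleosome-binding protein, stood at 12.97, 10.9 and 10.9 CPM in UA, 11.6 in JU replicate 1, and 7.04 and 6.74 CPM in JU replicates 2 and 3 (-0.76 ± 0.14 without replicate 1, edgeR adjusted p = 0.0448). Lysmd3 was at 9.64 to 10.9 CPM in UA, 12.9 in JU replicate 1, and 6.28 and 6.69 in the other JU libraries (-0.67 without replicate 1 and -0.25 with it). Etaa1, an activator of the ATR checkpoint kinase, Tipin, a replication fork protein, Rchy1, an E3 ubiquitin ligase, and Fem1c, a substrate receptor of a ubiquitin ligase, also passed in this fit, with fold changes of -0.74, -0.60, -0.65 and -0.62. JU replicate 1 lay within the range of UA for Tipin. For Etaa1, Rchy1 and Fem1c it lay between the UA libraries and the other JU libraries.

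Evc2, a ciliary protein of Hedgehog signalling (Entrez 68525; chromosome 5, 37338499 to 37425055), had the largest fold change among the 23 genes that passed as higher with all libraries. It stood at 6.37, 8.43 and 8.001 CPM in UA and 22.6, 21.5 and 15.3 CPM in JU, so the lowest JU library lay above the highest UA library (1.38 ± 0.24, edgeR adjusted p = 0.0432, and 1.26 ± 0.26 without JU replicate 1, adjusted p = 0.0451). The mean was 11.6 CPM in sham, 18.1 in vehicle and 18.2 in JA, so the UA libraries lay below the mean of every other group. With the GC correction Evc2 kept fold changes of 1.23 and 1.11 in the 2 fits, without passing.

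Prkcsh, the beta subunit of glucosidase II, which trims sugars of glycoproteins, was the other gene higher in both fits (Entrez 19089; chromosome 9, 22002806 to 22014222). It was at 61.7, 61.6 and 61.2 CPM in UA and 92.1, 74.7 and 76.6 CPM in JU (0.40 ± 0.08, edgeR adjusted p = 0.0443, and 0.29 ± 0.06 without JU replicate 1). Zfp366, a zinc finger protein, stood at 2.55, 2.76 and 3.03 CPM in UA and 4.91, 5.19 and 5.01 CPM in JU (0.86 ± 0.17, edgeR adjusted p = 0.0443). Its fold change was 0.87 without JU replicate 1, where it did not pass (adjusted p = 0.055), and its GC-corrected values were 0.83 and 0.87. Means in sham, vehicle and JA were 3.05, 2.92 and 2.85 CPM, near the UA level.

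Further genes that rose with all libraries were Celsr1 and Scrib, both of planar cell polarity, at 0.92 and 0.53, and Pdgfb, the growth factor that recruits pericytes, at 0.66. Pdgfb was at 17.2, 18.2 and 20.1 CPM in UA and 34.5, 25.98 and 27.6 CPM in JU (edgeR adjusted p = 0.048). Ttll3, Zfp276, Anks1, Tom1 and Nfic rose by 0.50 to 0.76. None of these 8 genes passed without JU replicate 1. Paqr4 and Gapdh passed only in the fit without it, at 0.30 and 0.98. The value for Gapdh, a glycolytic enzyme with many processed pseudogene copies, is uncertain because reads could be assigned to the copies.

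The called genes differed from the rest in GC content, and so did the libraries. The median transcript GC content was 41.3% for the 167 lower genes and 58.2% for the 23 higher genes, against 50.3% for all genes tested. When all genes were divided into 10 deciles by GC content, 98 of the 167 lower genes were in the lowest decile and 45 in the next, while of the 23 higher genes 9 were in the highest decile and 13 in the one before it. The lower genes also had longer 3' untranslated regions, with a median of 2045 bases against 1166 for all genes tested. In the lowest decile the median deviation of log2 CPM from the gene mean over 15 libraries was 0.15, 0.11 and 0.10 in UA, and -0.11, -0.14 and -0.19 in JU. All sham and JA libraries lay above 0 there, from 0.04 to 0.16, and all vehicle libraries below it, from -0.19 to -0.15. Since every UA library lay on 1 side and every JU library on the other, the GC trend and the treatment cannot be told apart in these libraries.

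**Figure D2:**
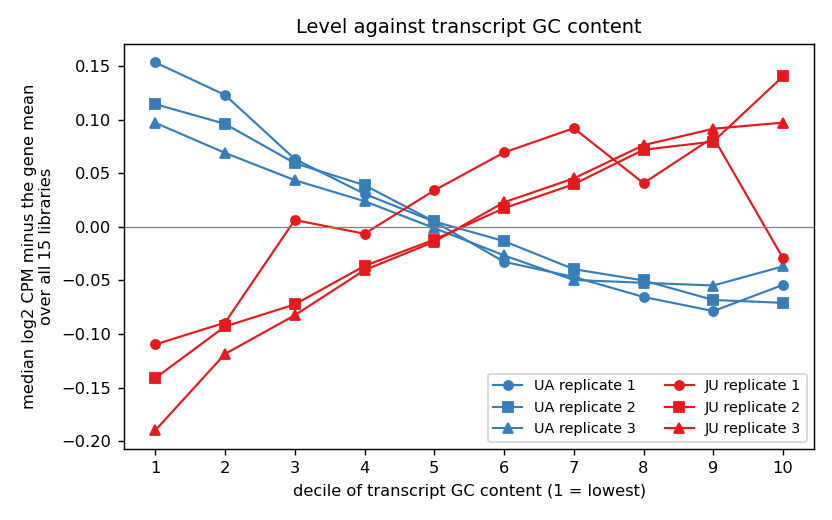
Median deviation of log2 CPM from each gene's mean over 15 libraries (vertical axis) by decile of transcript GC content (horizontal axis, 1 lowest), with 1 line for each UA (blue) and JU (red) library. UA libraries ran from 0.10 to 0.15 in the lowest decile and JU libraries from -0.19 to -0.11, and in decile 9 the order was the opposite.

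After a correction for this trend, 0 genes passed in either edgeR fit. Genes with an unadjusted p under 0.05 numbered 2519 (17.1%) with all libraries and 694 (4.72%) without JU replicate 1. Directions were mostly kept while sizes shrank: the 167 lower genes had a median of -0.20 in place of -0.44, and 3 of them turned positive. Ube3a went from -0.47 to -0.11 and Ipo7 from -0.50 to -0.22. Sizes changed less for Evc2, Zfp366 and Antkmt, given above, and for Fam136a, which went from -0.66 to -0.58.

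The position of each library on the difference between vehicle and sham shows how far the JU and UA libraries resembled occlusion with vehicle. On this axis 0 is the sham mean and 1 the vehicle mean, over all genes tested. UA libraries stood at 0.11, 0.36 and 0.16, and JU libraries at 1.77, 0.14 and 0.50, with vehicle from 0.79 to 1.38. The groups overlapped: JU replicate 1 lay above every vehicle library and JU replicate 2 within the range of UA (two-sided exact permutation test, p = 0.3, with 0.1 the smallest p that 3 against 3 libraries can give). Across the 14689 genes, which are not independent, the vehicle minus sham fold change and the JU minus UA fold change had r = 0.85 with all libraries and 0.22 without JU replicate 1, with slopes of 0.74 and 0.09. Vehicle and sham differed past the threshold in 788 genes (5.36%), 126 higher and 662 lower in vehicle. The 126 had a median fold change of 0.40 in JU against UA (123 positive) and the 662 one of -0.36 (4 positive). Without JU replicate 1 these medians were 0.28 and -0.31, and with the GC correction as well 0.14 and -0.08. Median GC content was 57.2% for the 126 and 42.2% for the 662.

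**Figure D3:**
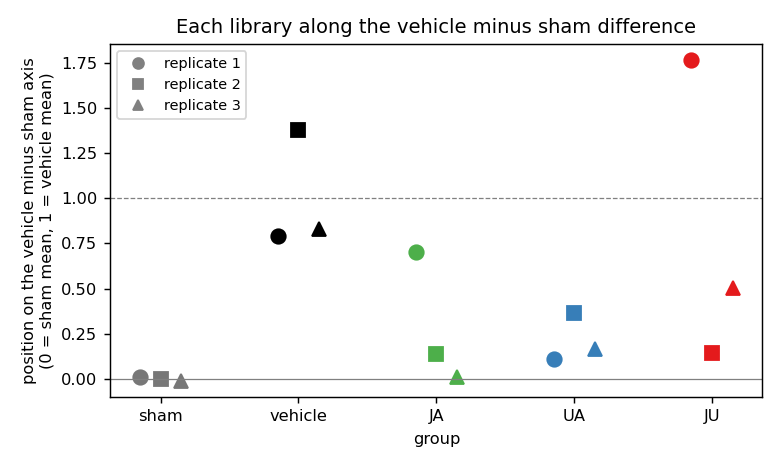
Position of each of the 15 libraries (points, shaped by replicate) on the vehicle minus sham difference, by group on the horizontal axis. JU replicate 1 is at 1.77, above the vehicle libraries, while the other JU libraries are at 0.14 and 0.50 and UA at 0.11 to 0.36.

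Genes of reactive microglia and macrophages differed between JU and UA mainly through JU replicate 1. Fewer cells of a type and less RNA per cell cannot be told apart in these bulk libraries. All 26 listed genes had positive fold changes with all libraries (median 2.30), and 17 of 26 without JU replicate 1 (median 0.10), beside medians of 0.02 and 0.00 over all genes tested. 0 of the 26 passed in either edgeR fit. Spp1, osteopontin, stood at 11.5, 119 and 76.1 CPM in UA, 9645 in JU replicate 1, and 9.22 and 46.4 CPM in JU replicates 2 and 3. The fold change was 5.55 ± 2.25 with all libraries and -1.31 ± 1.62 without JU replicate 1 (edgeR adjusted p = 0.15 and 0.738). Gpnmb, a glycoprotein of lipid-laden phagocytes, was at 3399 CPM in JU replicate 1 and between 3.55 and 38.2 CPM in the other 5 libraries, and Lgals3, galectin 3, at 536 CPM against 1.88 to 5.57. Msr1, a scavenger receptor, Adam8, a metalloprotease, and Atp6v0d2, a proton pump subunit, followed the same order, with 290, 173 and 69.8 CPM in JU replicate 1 and no more than 2.91 CPM elsewhere in the 2 groups.

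Other lists of injured tissue had the same form. Complement genes had a median of 2.49 with all libraries (15 of 15 positive) and 0.16 without JU replicate 1, collagens and matrix genes 2.51 (19 of 19) and 0.07, cell cycle genes 2.03 (18 of 18) and -0.12, and type I interferon response genes 0.71 (15 of 15) and -0.23. None of these members passed in either fit. All JU libraries lay above all UA libraries in 1 of 15 complement and 3 of 19 collagen and matrix genes. They did so in 1 of 18 cell cycle and 0 of 15 interferon genes, against 9.9% of all genes tested. Tnc, tenascin C, a matrix glycoprotein, did not overlap: 10.5, 7.59 and 11.6 CPM in UA and 30.8, 13.2 and 19.6 CPM in JU (1.10 ± 0.26, edgeR adjusted p = 0.059, and 0.72 ± 0.21 without JU replicate 1, adjusted p = 0.096). C2, a complement protease, was at 1.38 to 1.83 CPM in UA and at 16.7, 3.17 and 5.26 CPM in JU, again with no overlap (2.42 ± 0.61, edgeR adjusted p = 0.069, and 1.42 ± 0.48 without JU replicate 1, adjusted p = 0.148).

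**Figure D4:**
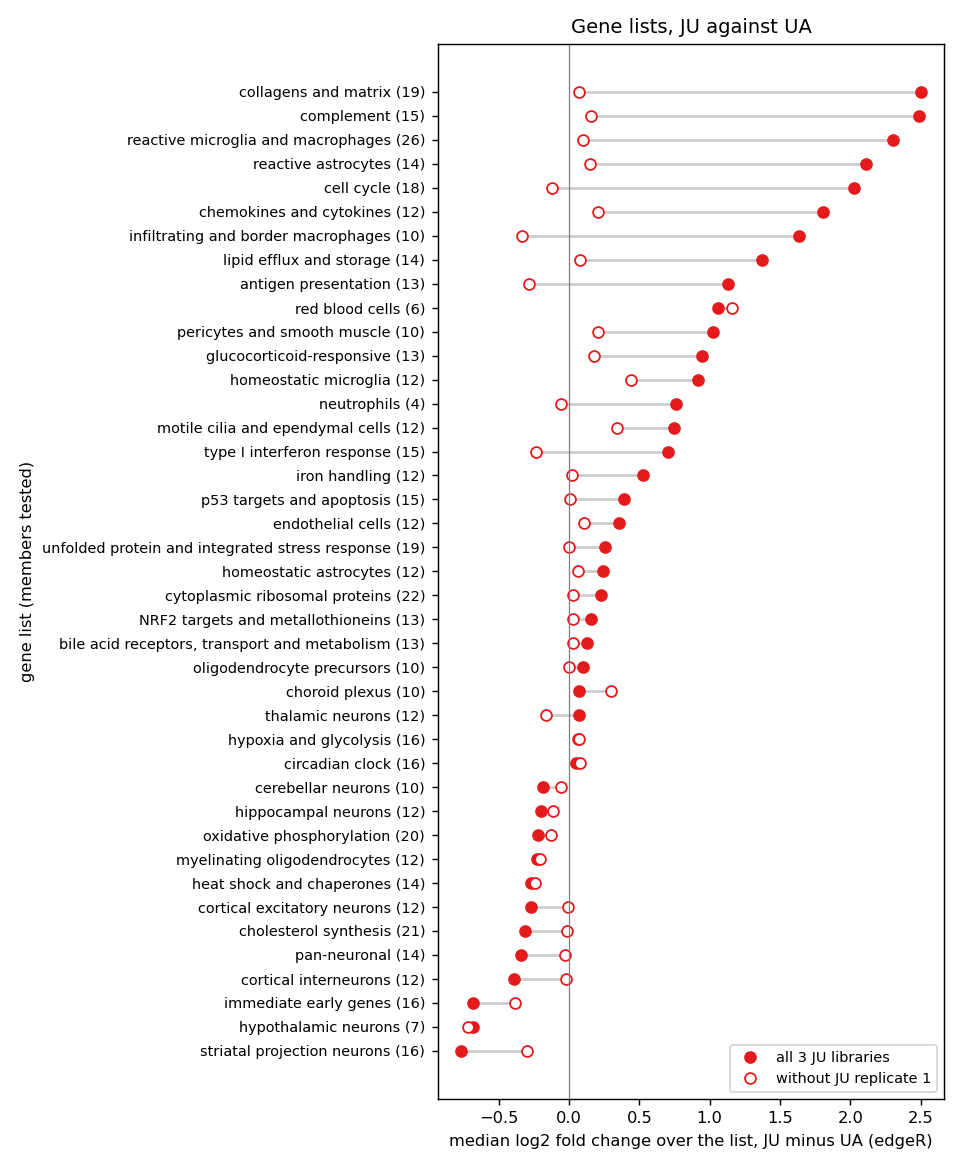
Median log2 fold change of JU minus UA (horizontal axis) for each gene list with at least 4 genes tested (vertical axis, genes tested in brackets), with all libraries (filled) and without JU replicate 1 (open). Reactive microglia and macrophages move from 2.30 to 0.10, while red blood cells are at 1.06 and 1.16 and immediate early genes at -0.68 and -0.39.

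Homeostatic microglia markers were positive in 12 of 12 genes both with JU replicate 1 (median 0.91) and without it (median 0.44), and 0 passed. Their summed level was 701 to 1059 CPM in UA and 3491, 656 and 1566 CPM in JU, so JU replicate 2 lay below every UA library. Fcrls, an Fc receptor-like protein of microglia, was at 32.8, 30.5 and 42.3 CPM in UA and 355, 35.6 and 150 CPM in JU (2.36 ± 0.68, edgeR adjusted p = 0.0906, and 1.40 ± 0.63 without JU replicate 1, adjusted p = 0.293). Tmem119, a surface marker of resident microglia, was at 31.2, 35.2 and 27.7 CPM in UA and 127, 36.6 and 57.6 CPM in JU, with no overlap (1.23 ± 0.41, edgeR adjusted p = 0.118, and 0.58 ± 0.34 without JU replicate 1, adjusted p = 0.418).

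Reactive astrocyte genes had medians of 2.11 (14 of 14 positive) and 0.15 (8 of 14), and 0 passed. Gfap, the astrocyte intermediate filament, stood at 394, 954 and 420 CPM in UA and 4659, 283 and 1878 CPM in JU. JU replicate 2 was thus the lowest and JU replicates 1 and 3 the highest of the 6. S100a6, a calcium-binding protein, was at 12.2 to 15.3 CPM in UA and 99.4, 16.2 and 26.9 CPM in JU (1.74 ± 0.52, edgeR adjusted p = 0.0964, and 0.60 ± 0.28 without JU replicate 1, adjusted p = 0.297).

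Pan-neuronal genes had positive fold changes in 0 of 14 with JU replicate 1 (median -0.34) and in 7 of 14 without it (median -0.03). Their summed level was 12311 to 12929 CPM in UA, 5134 CPM in JU replicate 1, and 13072 and 11556 CPM in the other JU libraries. Map2, a dendritic microtubule protein, was at 1473, 1327 and 1268 CPM in UA and 563, 1277 and 1103 CPM in JU. Rbfox3, the neuronal nuclear antigen NeuN, was at 258, 238 and 256 CPM in UA, 135 in JU replicate 1, and 315 and 277 CPM in the others. Markers of striatal projection neurons had medians of -0.77 (0 of 16 positive) and -0.30 (1 of 16), with 0 passing. Drd2, the dopamine receptor of indirect pathway neurons, was at 37.3 to 40.1 CPM in UA and 2.50, 42.1 and 21.9 CPM in JU, and Tac1, the substance P precursor, at 37.5 to 54.9 and 2.25, 49.7 and 19.1 CPM. In both genes JU replicate 1 was lowest, JU replicate 3 next, and JU replicate 2 within the range of UA or just above it. Markers of cortical interneurons had medians of -0.39 (0 of 12 positive) and -0.02 (6 of 12), with 0 passing. In 3 of the 12 all JU libraries lay below all UA libraries, against 14.4% of all genes tested. Without JU replicate 1 it was also 3 of 12, against 21.2%. Gad2, a member of that list, makes the transmitter GABA and is not particular to cortical interneurons. It was at 283, 268 and 234 CPM in UA and 72.5, 221 and 164 CPM in JU, with no overlap (-0.78 ± 0.31, edgeR adjusted p = 0.143, and -0.45 ± 0.19 without JU replicate 1, adjusted p = 0.246).

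Immediate early genes, which neurons switch on with activity, had mostly negative fold changes in JU, and 0 passed in either fit. With all libraries 1 of 16 was positive (median -0.68), and without JU replicate 1, 2 of 16 (median -0.39). In 7 of the 16 all JU libraries lay below all UA libraries, against 14.4% of all genes tested, and in 8 of 16 when JU replicate 1 was left out, against 21.2%. Nr4a1, an orphan nuclear receptor, was at 115, 95.3 and 149 CPM in UA and 10.7, 78.8 and 54.6 CPM in JU (-1.32 ± 0.70, edgeR adjusted p = 0.234, and -0.85 ± 0.67 without JU replicate 1). Dusp1, a phosphatase of MAP kinases, was at 54.8, 50.4 and 61.4 CPM in UA and 22.3, 39.1 and 27.02 CPM in JU (-0.91 ± 0.39, adjusted p = 0.162 in edgeR, and -0.75 ± 0.45 without JU replicate 1). Egr2, Junb and Ier2 had fold changes of -1.02, -0.42 and -0.39 with all libraries and of -0.81, -0.49 and -0.55 without JU replicate 1. The summed level of the list was 1092 to 1408 CPM in UA, 389 to 1072 in JU, 437 to 1671 in JA, 406 to 1043 in vehicle and 601 to 772 in sham, so the UA libraries lay above those of JU, sham and vehicle.

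**Figure D5:**
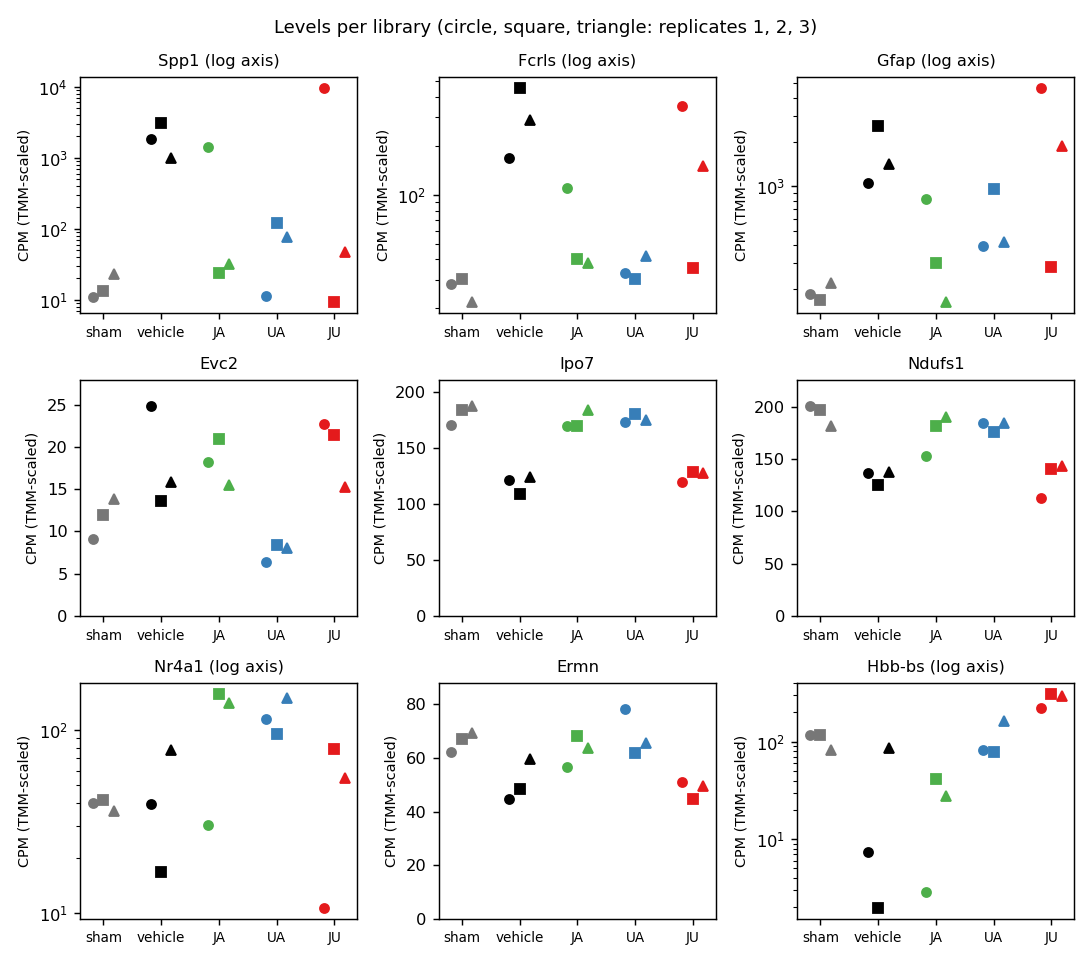
CPM (vertical axes, logarithmic where marked) of 9 genes in each of the 15 libraries by group (horizontal axes), 1 point per library shaped by replicate. Spp1 reached 9645 CPM in JU replicate 1 alone, Ipo7, Ndufs1 and Ermn were lower in all 3 JU than in all 3 UA libraries, and Evc2 and Hbb-bs were higher.

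Nuclear genes of oxidative phosphorylation, which build the mitochondrial respiratory chain, were positive in 0 of 20 with all libraries (median -0.22) and in 3 of 20 without JU replicate 1 (median -0.13), and 0 passed. In 10 of the 20 all JU libraries lay below all UA libraries, against 14.4% of all genes tested. Ndufs1, of complex I, was at 185, 176 and 184 CPM in UA and 113, 140 and 143 CPM in JU (-0.46 ± 0.10, edgeR adjusted p = 0.0528, and -0.36 ± 0.09 without JU replicate 1, adjusted p = 0.0638). Cox5a, of cytochrome c oxidase, had a fold change of -0.47 and Atp5c1, of ATP synthase, of -0.36 (edgeR adjusted p = 0.079 and 0.0602, with -0.33 and -0.29 without JU replicate 1). With the GC correction the list medians were -0.23 and -0.11.

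Heat shock and chaperone genes had medians of -0.27 and -0.24, and in 7 of 14 all JU libraries lay below all UA libraries, against 14.4% of all genes tested. With the GC correction the medians were -0.22 and -0.12. Chordc1, a cochaperone, was at 50.6, 52.98 and 48.003 CPM in UA and 31.5, 37.9 and 34.2 CPM in JU (-0.55 ± 0.16, edgeR adjusted p = 0.0893, and -0.49 ± 0.17 without JU replicate 1). Hspa4l, Dnaja1 and Hspd1 had fold changes of -0.56, -0.50 and -0.29, and of -0.37, -0.35 and -0.26 without JU replicate 1. The GC content of Chordc1 was 35.7%, and its fold change with the GC correction was -0.16. Canx, calnexin, a chaperone of the endoplasmic reticulum, passed without JU replicate 1 (-0.33 ± 0.07, edgeR adjusted p = 0.0448). It stood at 403, 382 and 376 CPM in UA and 354, 302 and 315 CPM in JU. Hsp90b1, another chaperone of that compartment, was at 375 to 407 CPM in UA, 497 in JU replicate 1, and 287 and 289 CPM in the other JU libraries (-0.46 without replicate 1, edgeR adjusted p = 0.0523). The list of the unfolded protein and integrated stress response as a whole had medians of 0.26 and 0.00, with 1 of 19 members past the threshold, Canx, in the second fit.

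Ireb2, which controls the messages of iron uptake and storage, was the 1 list member that passed in both fits. It stood at 82.8, 82.2 and 77.2 CPM in UA and 65.8, 63.3 and 60.2 CPM in JU (-0.35 ± 0.07, edgeR adjusted p = 0.0443, and -0.39 ± 0.07 without JU replicate 1, adjusted p = 0.0448). Its GC content was 39.0%, and with the GC correction its fold changes were -0.05 and -0.07. Tfrc, the transferrin receptor, was at 124, 120 and 117 CPM in UA and 63.1, 102 and 73.9 CPM in JU (-0.60 ± 0.16, edgeR adjusted p = 0.0834, and -0.46 ± 0.15 without JU replicate 1). Over the iron handling list 10 of 12 genes were positive with all libraries and 6 of 12 without JU replicate 1.

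For Hbb-bs, Hbb-bt and Hba-a1 all JU libraries lay above all UA libraries, 3 of the 6 red blood cell genes tested against 9.9% of all genes tested, and none of these haemoglobin genes passed. Hbb-bs, an adult beta globin, was at 81.6, 77.7 and 163 CPM in UA and 220, 312 and 292 CPM in JU (1.36 ± 1.02, edgeR adjusted p = 0.392, and 1.49 ± 1.13 without JU replicate 1). Hbb-bt was at 10.1 to 26.3 CPM in UA and 34.8 to 50.5 CPM in JU, and Hba-a1 at 35.1 to 115 and 120 to 144 CPM. Alas2, which starts haem synthesis in red cell precursors, was at 4.29 to 13.9 CPM in UA and 12.98, 21.7 and 16.9 CPM in JU, with overlap by JU replicate 1. Reads of the near-identical globin copies cannot be assigned with certainty. Hbb-bs was at 82.5 to 118 CPM in sham, and at 7.45, 1.96 and 86.5 CPM in vehicle, whose replicate 3 lay at the sham level. The part of blood left in the tissue in these values was not tested.

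Myelin genes had medians of -0.23 (3 of 12 positive) and -0.21 (1 of 12), with 0 passing. Ermn, a cytoskeletal protein of mature oligodendrocytes, was at 78.2, 61.9 and 65.7 CPM in UA and 51.1, 44.7 and 49.3 CPM in JU (-0.50 ± 0.12, edgeR adjusted p = 0.0563, -0.55 ± 0.13 without JU replicate 1, and -0.17 with the GC correction). Mal, a myelin proteolipid, was at 389, 293 and 308 CPM in UA and 230, 250 and 271 CPM in JU (-0.40 ± 0.13). Of the circadian clock genes 8 of 16 were positive with all libraries (median 0.05) and 12 of 16 without JU replicate 1 (median 0.08), and 0 passed. Clock itself, with a GC content of 40.9%, had a fold change of -0.37 (edgeR adjusted p = 0.0608), while Dbp and Nr1d1, which the clock drives, were at 0.18 and 0.13, and at 0.43 and 0.40 without JU replicate 1.

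Genes of bile acid receptors, transport and metabolism, the list closest to the bile acid of the study title, had medians of 0.13 and 0.03, with 7 of 13 positive in both fits and 0 passing. Cyp7b1, an oxysterol hydroxylase of the alternative bile acid pathway, was at 21.2, 18.7 and 17.8 CPM in UA and 12.3, 13.1 and 15.2 CPM in JU (-0.51 ± 0.12, edgeR adjusted p = 0.0578, and -0.44 ± 0.13 without JU replicate 1). Vdr, the vitamin D receptor, which also binds lithocholic acid, was at 0.30 to 0.39 CPM in UA and 4.65, 0.93 and 0.89 CPM in JU (2.62 ± 0.64, edgeR adjusted p = 0.0607, and 1.37 ± 0.45 without JU replicate 1, adjusted p = 0.142). Abcc4, an exporter of bile acids, was at 10.001 to 12.4 CPM in UA and 36.8, 12.9 and 16.96 CPM in JU. In these 3 genes the JU and UA libraries did not overlap. For Vdr no UA library reached 10 counts, so it entered the test only through the JU libraries. Its lack of overlap and its fold change were therefore shaped by the filter. Over the list all JU libraries lay above UA in 2 of 13 genes, Vdr among them, and below in 2, against 9.9% and 14.4% of all genes tested.

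Over all genes, the JU libraries all lay above the UA libraries in 1454 genes (9.9%) and below them in 2115 (14.4%). Among these genes, with a mean of at least 5 CPM, the largest differences of medians, apart from the globins and Evc2, were those of Hmga1b, a chromatin protein with a near-identical copy, whose assignment is uncertain, and of Mcm6, a replicative helicase subunit. Mcm6 was at 3.55, 8.67 and 5.59 CPM in UA and 37.9, 8.90 and 14.3 CPM in JU (1.78 with all libraries and 0.96 without JU replicate 1, not passing). In the other direction stood AW551984, Lyrm7, a chaperone of respiratory complex III, Egr2, Nr4a1, Dusp1 and Gbp4, an interferon-induced GTPase. Lyrm7 was at 26.6, 17.2 and 22.7 CPM in UA and 6.08, 9.88 and 12.8 CPM in JU (-1.21 ± 0.52, edgeR adjusted p = 0.164, and -0.97 ± 0.59 without JU replicate 1).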

How the data were processed

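Libraries were made from mirVana-extracted brain RNA with the TruSeq Stranded mRNA kit, per the labels' protocols. Raw integer counts of reads per gene were deposited for each library, per the file headers. FPKM values by the authors stand beside them. Tools listed in the submitters' processing notes are Trimmomatic, HISAT2, Cufflinks and DESeq, with build GRCm38 (mm10). Which tool counted the reads, and with which strand setting, is not given in the sources used here, so overlapping genes are uncertain. 1 value column matched no sample and was not used.

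The 14689 genes with at least 10 counts in 3 of the 6 JU and UA libraries were tested with edgeR 4.0.16 in R 4.3.3 (TMM scaling, robust quasi-likelihood). The first fit took all 15 libraries, grouped by treatment (biological coefficient of variation 26.1%), and the second the 14 without JU replicate 1 (16.3%). SE is the fold change over the root of the F statistic. Adjusted p-values are Benjamini-Hochberg values over all genes tested. The procedure was tested on simulated data drawn with the gene spreads of these fits. They held no library set apart like JU replicate 1, so they cannot show how such a library affects the calls.

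GC content and coordinates come from the GENCODE annotation of GRCm38, which matched 18529 genes (97.9%), 14591 of those tested having a GC value (99.3%). The GC correction subtracts a lowess trend (span 0.3) per library as an offset.

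42 lists hold 589 genes, of which 585 are in the table and 545 were tested. Members and lists were chosen with earlier results of these data known, and get counts and medians, with no test. Named genes are, per fit, the 10 called genes with the largest rise and the 10 with the largest fall (mean of at least 1 CPM, no overlap, no predicted symbol), the 6 each way with the largest non-overlapping difference of medians and those furthest apart in JU replicate 1 (at least 5 CPM), and up to 4 members per list. Alternatives were DESeq2 1.42.0, voom and FPKM fits in limma 3.58.1 (log2 of FPKM + 1), other scalings and filters, fewer libraries, a GC correction and a replicate block.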

Additional observations from a re-analysis of the deposited data

How the results depend on the processing

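With all libraries, the 190 genes became 1633 with DESeq2 and 2945 with voom and sample weights, and 0 with size factors of DESeq2 in edgeR, with no filter on low counts, with JU and UA alone, with the GC correction, with the replicate block, with both of these, and without JA replicate 1 (chosen after seeing the data). They were 164 with filterByExpr and 187 on FPKM. Leaving out 1 JU or UA library gave 0 to 3150. Without JU replicate 1, the 115 genes became 743, 756 and 31 with DESeq2, voom and FPKM, and 0 with the other scaling, with no filter, with JU and UA alone (with or without the GC correction), with the GC correction, with the replicate block (alone or with the GC correction) and without JA replicate 1. Leaving out 1 library gave 0 to 1. Changing the scaling moved the median of all genes by 0.01 in both fits. Where 0 passed, 606 to 4608 genes had an unadjusted p under 0.05, and the cause of the lost calls was not tested.

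Same-numbered JU and UA libraries had deviations correlated at -0.25, -0.41 and 0.06, and the other pairs at -0.23 to 0.38. With 3 libraries a group these values cannot show whether the numbers pair libraries. The non-overlapping genes, 3569 with all libraries, ran from 4295 to 6442 when 1 library was left out, where fewer samples must overlap less, and 7038 to 7543 in place of 5804 without JU replicate 1.

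Spp1, Gpnmb, Msr1 and Atp6v0d2 turned to -0.66, -0.25, -0.035 and -1.75 with voom weights. When 1 library was left out they ran from -1.31 to 6.21, -0.83 to 6.90, -0.68 to 6.53 and -2.19 to 5.87, lowest without JU replicate 1 and highest without UA replicate 2. In the fit without JU replicate 1, Gfap ran from -1.06 without JU replicate 3 to 1.67 without JU replicate 2, and Cbln3 from -3.86 without UA replicate 3 to 2.81 without UA replicate 2. The last value is no measured fold, since the remaining UA libraries lay under the floor of 3 counts.

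Over the named genes and all alternatives, with all libraries 424 values kept direction and side of the threshold, 246 kept direction but lost the call, 19 gained one and 8 changed sign. Without JU replicate 1 these numbers were 647, 222, 23 and 2. List medians moved by more than the median SE of their members in 57 cases with all libraries and 19 without JU replicate 1.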

Other observations

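UA replicate 2 held 17.3 CPM of Cbln3 and 8.62 CPM of Fat2, both of cerebellar granule cells, against at most 0.78 CPM of either in the other UA libraries and at most 1.12 CPM in JU. Cbln3 had a fold change of -3.44 and Fat2 of -1.97 in JU against UA with all libraries, neither past the threshold in edgeR. For Cbln3 the value without UA replicate 2 is no measured fold, because both remaining UA libraries lay under the floor of 3 counts. The part of cerebellar tissue in other genes was not tested.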
